A study of Mus musculus with 2 samples.

Results

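The genes described here are the mouse VEGF ligands Vegfa, Vegfb, Vegfc and Pgf, their receptors Flt1, Kdr and Flt4, and the co-receptors Nrp1 and Nrp2. These 9 genes were chosen by name and not by a rule on measured values, though with earlier results of these data known. All 9 were present among the 22652 genes counted in the 2 libraries. The study profiled single cells of E18.5 fetal femoral bone marrow from C57BL/6 mice after lineage-committed haematopoietic cells had been depleted (Lin-), using the BD Rhapsody whole transcriptome assay. One library was wild type (WT). The other carried floxed Wls, the carrier needed for secretion of Wnt proteins, together with the tamoxifen-inducible Bmx-CreER driver, which acts mainly in arterial endothelial cells (AECs), and is called the Wls mutant below. Tamoxifen was given to the pregnant dams of the mutants, whereas the litter and the tamoxifen treatment of the wild-type library are not given in the sources used here. How many animals were pooled per library is likewise not given in the sources used here, so library and genotype cannot be told apart.

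VEGF proteins are secreted growth factors that direct the formation and upkeep of blood and lymphatic vessels. Vegfa signals through the tyrosine kinases Kdr, the main mitogenic receptor of endothelial cells (ECs), and Flt1, which binds the ligand tightly but signals weakly. Vegfb and Pgf bind Flt1, and Vegfc binds Flt4, the receptor best known from lymphatic endothelium, and after processing also Kdr. Nrp1 and Nrp2 bind VEGF ligands beside these receptors and serve also as receptors of class III semaphorins in nerve and other cells. In developing long bones the cartilage of the growth plate, above all its hypertrophic zone, is known as a source of Vegfa that draws vessels into the mineralizing matrix.

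The libraries held 5998 (WT) and 6825 (Wls mutant) cell barcodes with 22708005 and 24704991 UMIs, of which 5736 and 6620 cells passed the filters with a median of 3128 and 3067 UMIs. Of the barcodes, 49 occurred in both libraries. A level is the summed UMIs of a gene in a class of cells per 1e6 UMIs of that class (CPM), with an exact Poisson 95% interval in parentheses after it. Ratios carry an exact conditional binomial 95% interval, and shares of cells an exact Clopper-Pearson interval where one is printed. With 1 library per genotype there was no replicate check and no test, and all intervals cover counting error only. UMI counts are not scaled to transcript length, so levels were compared between classes within a gene and never between genes. Fewer transcripts per cell and fewer cells using a gene cannot be told apart in a summed level. Cell classes were rebuilt by clustering without the 9 genes and are called by their markers ("-like") or leading gene; for the wild-type library the study's own cell labels, called listed labels, were joined by barcode for 3690 cells.

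Wls, the targeted gene, was read first. In arterial EC-like cells it had 11 UMIs (44.2 CPM) in the WT library and 3 UMIs (10.6 CPM) in the mutant library, a mutant-to-WT ratio of 0.239 (0.0429 to 0.906). In the other EC-like cells the levels were 41.4 and 25.1 CPM, and over all kept cells they were 135.1 and 112.4 CPM. Wls was thus low in the mutant arterial cells on the basis of 3 UMIs, with an interval that overlaps that of the other EC-like cells (0.607, 0.398 to 0.912). Ratios under 1 whose intervals left out 1 were read also in stromal-like (0.752), osteolineage-like (0.758), Wif1-led (0.683) and Hbegf-led cells (0.766), outside endothelium. EC-like cells carried the endothelial genes Cdh5 (1606 and 1505 CPM) and Pecam1 (2314 and 2055), so their name rests on markers outside the VEGF genes. The classes used most below held 508 WT and 391 mutant non-arterial EC-like cells, 987 and 641 stromal-like cells, 681 and 853 growth plate-like, 469 and 481 hypertrophic-like and 313 and 172 osteolineage-like cells.

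Because the results turn on where Kdr, Flt1 and Vegfa were read, the sequences just upstream of their transcript starts are shown first, from RefSeq on GRCm38.p6. All 3 genes lie on the minus strand, with the gene bodies of the GENCODE annotation at chr5:75932827-75978458 (Kdr), chr5:147561604-147726011 (Flt1) and chr17:46016993-46032369 (Vegfa). The windows are written 5′ to 3′ along the gene. Those of Flt1 and Vegfa end at the base before the RefSeq transcript start. The Kdr window, 247 bases long, ends at the base before the GENCODE gene body, slightly short of the RefSeq start. In the Kdr and Flt1 windows the capitals mark GGAA or its reverse complement TTCC, the core letters bound by ETS factors. In the Vegfa window they mark GGGCGG or its reverse complement CCGCCC, the GC box.
Kdr, chr5:75978459-75978705: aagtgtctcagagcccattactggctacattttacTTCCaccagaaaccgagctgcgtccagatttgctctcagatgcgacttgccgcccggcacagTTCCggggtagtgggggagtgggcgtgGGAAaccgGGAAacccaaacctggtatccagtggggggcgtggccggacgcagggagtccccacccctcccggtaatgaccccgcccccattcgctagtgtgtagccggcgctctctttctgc
Flt1, chr5:147726012-147726261: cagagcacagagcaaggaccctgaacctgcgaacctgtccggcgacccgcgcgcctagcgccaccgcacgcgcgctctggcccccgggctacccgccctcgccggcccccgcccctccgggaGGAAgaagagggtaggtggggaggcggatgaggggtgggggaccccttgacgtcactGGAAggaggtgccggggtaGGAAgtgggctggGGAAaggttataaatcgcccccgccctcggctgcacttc
Vegfa, chr17:46032378-46032627: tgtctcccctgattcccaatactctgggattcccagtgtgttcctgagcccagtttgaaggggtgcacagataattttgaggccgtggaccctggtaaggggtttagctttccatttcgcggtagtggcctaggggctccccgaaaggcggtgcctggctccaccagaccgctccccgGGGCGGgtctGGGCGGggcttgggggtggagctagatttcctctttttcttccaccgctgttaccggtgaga

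The Kdr window held the core in 4 places, 2 on each strand, and the Flt1 window in 4 places on the printed strand. Such short letters are frequent: 93.4% of the upstream windows of 32851 RefSeq promoters held GGAA or TTCC, and 32.7% held the GC box. ACGTG or CACGT, the core of the hypoxia response element, stood in 16.6% of all windows, and the Vegfa window printed above had 0 matches. A second RefSeq promoter of Vegfa, at chr17:46025114-46025413, had 1. The cores did not set the receptor genes apart: over 300 bases, 250 before and 50 after the start, GGAA or TTCC had 6 matches in Vegfa, 5 in Kdr and 4 in Flt1, and the GC box 2, 2 and 3. A match is a description of the letters in this window and not a bound site.

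The remaining genes lie at chr19:6982473-6987651 (Vegfb, minus strand), chr8:54077606-54187096 (Vegfc, plus), chr12:85166635-85177790 (Pgf, minus), chr11:49609263-49652739 (Flt4, plus), chr8:128358604-128503363 (Nrp1, plus) and chr1:62703285-62818695 (Nrp2, plus). Nrp2 is overlapped by the antisense gene Gm29083 and by Gm37121, and whether reads were counted by strand is not given in the sources used here, so part of the Nrp2 count could belong to these genes.

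Vegfa, the ligand of Kdr and Flt1, was read in every skeletal class and was lowest in non-arterial endothelium. Arterial EC-like cells had 64.2 (WT, 16 UMIs) and 63.4 CPM (Wls mutant, 18 UMIs). These values lay above those of haematopoietic stem and progenitor (HSPC)-like cells, at 48.8 and 57 CPM. Each neighbour step between the 2 classes had an interval that included 1 in both libraries, and no direct ratio of the 2 was taken. In the WT library it was highest in a class led by Stc1 at 218.9 CPM (179.6 to 264.3), in osteolineage-like cells at 203.4 (181.2 to 227.6) and in growth plate-like chondrocytes at 175.6 (158.6 to 193.9). All 67 cells of the Stc1-led class that carried a listed label were listed as chondrocyte. Stromal-like cells followed at 114 CPM (102.9 to 126) and hypertrophic-like chondrocytes at 101.7 (90.5 to 114), whereas the EC-like cells other than arterial had 10.5 (6.22 to 16.6). No single class held most of the ligand: of the WT Vegfa UMIs 16.4% lay in growth plate-like cells, 16.1% in stromal-like, 12.8% in osteolineage-like, 12.6% in the Wif1-led chondrocyte class and 12.5% in hypertrophic-like cells. Along the order of 14 classes the interval of every neighbour ratio included 1 until the last step, from HSPC-like cells (48.8 CPM) down to non-arterial EC-like cells, at 4.65 (2.86 to 8.03). Classes further apart in the order differed by more, with the Stc1-led interval (179.6 to 264.3) above that of stromal-like cells (102.9 to 126).

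**Figure D1:**
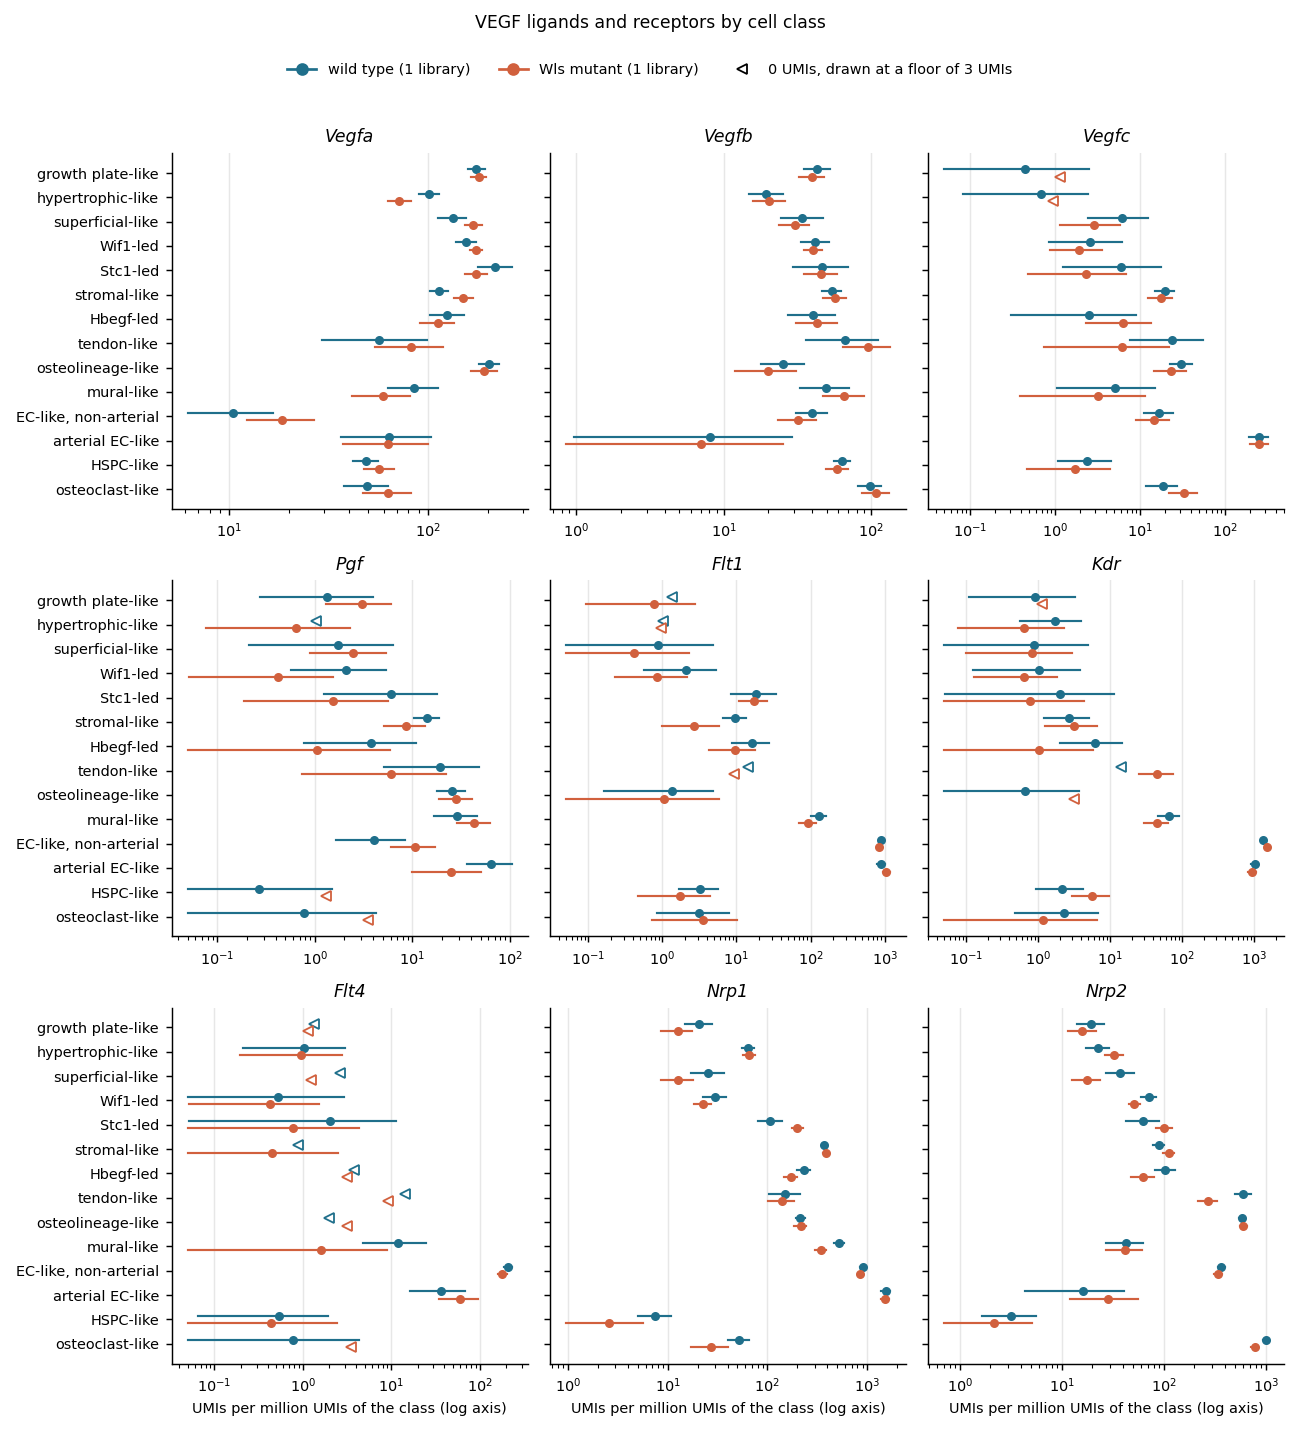
Levels of the 9 VEGF genes in 14 cell classes of both libraries, in CPM on a log axis. Points are single libraries with exact Poisson 95% intervals, and open triangles mark classes with 0 UMIs, drawn at the floor of 3 counts. Flt1, Kdr and Flt4 peak in the EC-like classes, Vegfc in the arterial EC-like class (252.9 CPM WT), and Vegfa in skeletal classes.

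Within cartilage, the hypertrophic-like cells had less Vegfa per UMI than the other chondrocyte-like cells in both libraries. The hypertrophic-like level was 0.638 times that of the other chondrocyte-like cells (0.557 to 0.729) in the WT library and 0.412 times (0.357 to 0.473) in the mutant library. Cells led by Col10a1 that clustered with the osteolineage-like class, described below, were not part of this comparison. Nor was the Stc1-led class, which was highest in WT Vegfa. Its cluster was not named as chondrocyte, and it is not counted among the chondrocyte-like cells anywhere here. Hypertrophic-like cells were deep, with a median of 6144 UMIs (WT) against 3063 in growth plate-like cells. Per 100 cells the order against growth plate-like cells turned in the WT library, with 63.3 Vegfa UMIs in hypertrophic-like and 57.4 in growth plate-like cells of the WT library, and 47 and 55.5 in the mutant library. It turned also against the other chondrocyte-like classes of the WT library. There 469 hypertrophic-like cells held 297 Vegfa UMIs, 841 Wif1-led cells 299 and 452 superficial-like cells 152. In the mutant library 481, 1786 and 851 cells of these classes held 226, 824 and 414. The lower WT level thus held per UMI and not in UMIs per 100 cells. The turn against growth plate-like cells was small and carries no interval. Of the 297 hypertrophic-like WT UMIs 37 lay in 5 cells, and of the 391 growth plate-like UMIs 15 lay in 3 cells. The share of WT cells with a Vegfa UMI stayed lower, at 32.8% in hypertrophic-like and 39.1% in growth plate-like cells. After each cell was thinned to 1000 UMIs these shares were 10.9% and 16%. In non-arterial EC-like cells, which had little Vegfa, the shares were 3.35% before and 1.21% after thinning at a median of 2950 UMIs. The other VEGF genes of cartilage did not all follow Vegfa: Nrp1 was 2.56 times higher in hypertrophic-like than in other chondrocyte-like WT cells (2.04 to 3.23), and Vegfb was 0.479 times as high (0.351 to 0.645). Nrp2 stood at 0.535 (0.4 to 0.707) in the WT library and at 0.97 in the mutant. Of the 4 members with at least 30 UMIs in this comparison, 1 was higher and 3 lower by over 1.5-fold in the WT library, where 37.2% of all genes passed that fold, and 1 higher and 2 lower in the mutant, where 37.5% did.

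The hypertrophic-like class was not uniform. Cells led by Mt1, a metallothionein (85 WT and 75 mutant cells), had 207.5 and 156.8 CPM of Vegfa. Cells led by Spp1, the osteopontin gene of late hypertrophic cells and osteoblasts, had 127.8 CPM in 70 WT cells and 59.1 in 47 mutant cells. In the former 3 cells held 42.6% of the Vegfa UMIs, so a few cells set that level. At the other end, cells led by the transcription factor Maf (74 and 63 cells) had 17.2 and 24.9 CPM of Vegfa together with 198.3 and 326.5 CPM of Nrp1.

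Osteolineage-like cells, the osteoblasts and their precursors, had 1.78 times the Vegfa level of stromal-like cells in the WT library (1.53 to 2.08) and 1.27 times (1.06 to 1.53) in the mutant. The mutant direction rested on a Col10a1-led subcluster of 19 cells, described below: without it the mutant level was 120.8 against 150.9 CPM, a ratio of 0.801 (0.636 to 1), and the WT ratio was 1.53 (1.29 to 1.8). Per 100 cells the whole classes, with that subcluster kept, had 97.4 against 38.9 UMIs in the WT library and 106.4 against 52.1 in the mutant. Vegfc and Pgf were also higher in osteolineage-like cells of the WT library, Vegfc at 1.57 times (1.05 to 2.32) and Pgf at 1.82 times (1.15 to 2.85), while Vegfb was 0.467 times as high. The co-receptors were apart, with Nrp1 at 0.576 (0.508 to 0.652) and Nrp2 at 6.55 (5.73 to 7.49) in the WT library and Nrp2 at 5.4 in the mutant.

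The listed labels of the WT library held 2 groups of osteolineage cells (OLCs) that differed in both ligands and co-receptors. OLCs-1, 202 cells, had 241.9 CPM of Vegfa against 110.4 in the 102 cells of OLCs-2, a ratio of 2.19 (1.64 to 2.95). Vegfc had 39 UMIs (53.6 CPM) in OLCs-1 and 0 UMIs in OLCs-2. Pgf stood at 42.6 against 3.3 CPM, a ratio of 12.9 that rests on 2 UMIs in OLCs-2 (3.29 to 111.5). Vegfb also was higher in OLCs-1, at 42.6 against 9.89 CPM. Of the 6 members with at least 30 UMIs, 5 were higher and 1 lower in OLCs-1 by over 1.5-fold, where 59.9% of all genes passed that fold, so differences of this size were common between these groups. The co-receptors were divided between the 2 groups: Nrp1 was at 328.5 CPM in OLCs-1 and 36.3 in OLCs-2, whereas Nrp2 was at 334 and 878.4 CPM, a ratio of 0.38 (0.325 to 0.443).

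Subclusters of the osteolineage-like cells were compared in both libraries. The most numerous, led by Tnc (120 WT and 54 mutant cells, of which 118 WT cells were listed as OLCs-1), had 215.4 and 170.4 CPM of Vegfa, 34.4 and 39.3 of Vegfc and 36.7 and 35 of Pgf. Their Nrp1 stood at 226.9 and 174.8 CPM, near the other osteolineage-like cells (1.08, 0.845 to 1.38 in the WT library), and their Nrp2 at 341.5 and 244.7, below them (0.501, 0.417 to 0.598). Cells led by Mmp9 (51 WT and 22 mutant cells) had 275.5 and 283.4 CPM of Vegfa, 106.3 and 121.5 of Vegfc, 53.2 and 108 of Pgf, and 676.8 and 1147 of Nrp1. Mmp9 encodes a protease with which cells of the vascular front clear matrix. Their Nrp1 level was 4.81 times that of the other osteolineage-like cells (3.83 to 6.02) in the WT library and 8.41 times (6.29 to 11.2) in the mutant. Cells led by Ifitm5, a gene of mineralizing osteoblasts (74 and 50 cells), were the reverse, with 109 and 61.4 CPM of Vegfa, 51 and 38 of Nrp1, and 902.3 and 973.9 of Nrp2. The Dkk1-led cells (34 and 19 cells) resembled them, with 846.1 and 914.1 CPM of Nrp2.

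The highest Vegfa level of any osteolineage subcluster was in few cells. A subcluster led by Col10a1, the collagen of hypertrophic cartilage, held 29 WT and 19 mutant cells and had 503.6 and 789.9 CPM of Vegfa, which is 2.89 (2.17 to 3.81) and 6.54 (4.82 to 8.84) times the level of the other osteolineage-like cells. Its best-scoring marker list was that of hypertrophic chondrocytes (score 2.53). Of its WT cells 15 were listed as OLCs-1, 6 as chondrocyte and 1 as myeloid progenitor, so it may not be osteolineage throughout. In the WT library 3 of these cells carried 40 of the 67 Vegfa UMIs, and in the mutant 5 cells carried 69 of 80, with at most 17 and 20 UMIs in one cell. Those 3 and 5 cells, picked for having 5 or more Vegfa UMIs, had 103250 and 78221 CPM of Col10a1 against 29896 and 17235 in the remaining cells of the subcluster. Acan, the cartilage proteoglycan, stood at 9278 and 2776 CPM in them and at 1221 and 546.2 in the remaining cells. Col2a1 was also higher, at 15323 and 7570 against 5029 and 2458 CPM. Other genes of hypertrophic cartilage and bone went the other way. Mmp13 stood at 718.3 and 11481 against 14974 and 14303 CPM, Spp1 at 13886 and 18325 against 17269 and 21130, and Ibsp at 1616 and 914.7 against 4006 and 5419. This is a description of a few cells chosen by their Vegfa count, and whether they were hypertrophic chondrocytes or doublets with cartilage cells was not tested. Cells with 5 or more Vegfa UMIs were rare in the whole libraries, 20 WT and 26 mutant cells, and held 6.13% and 5.9% of all Vegfa UMIs.

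**Figure D2:**
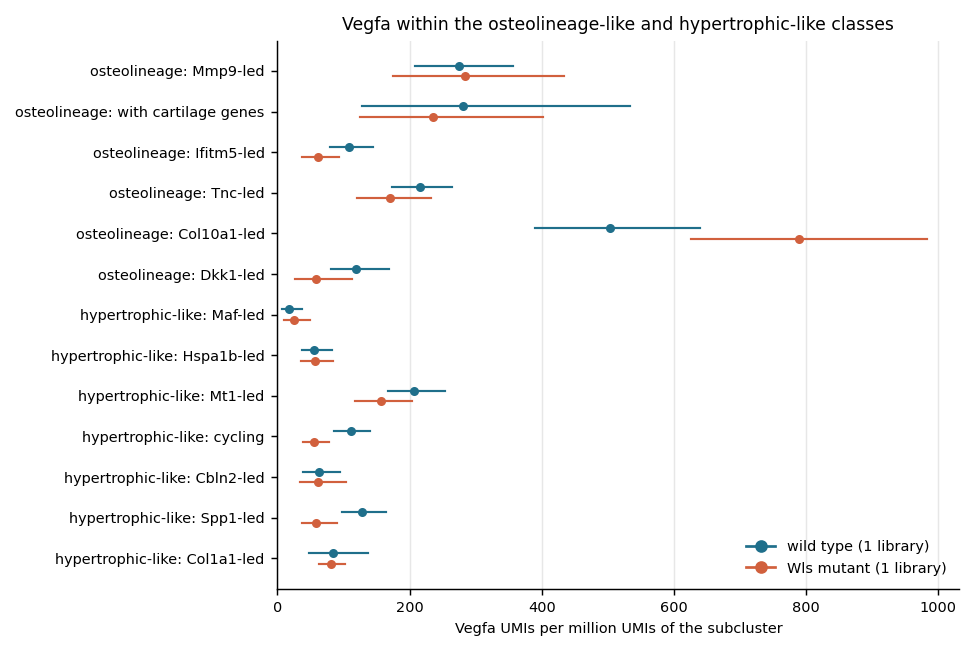
Vegfa level in subclusters of the osteolineage-like and hypertrophic-like classes, in CPM on a linear axis, for both libraries with exact Poisson 95% intervals. The Col10a1-led cells of the osteolineage-like class are highest (503.6 CPM WT, 789.9 Wls mutant), and the Maf-led hypertrophic-like cells lowest (17.2 and 24.9).

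Among the listed bone marrow stromal cells (BMSCs) of the WT library, the embryo-enriched eBMSC-1 (940 cells) and eBMSC-2 (149 cells) had nearly the same Vegfa level, 117.3 and 118.8 CPM. They differed in the other genes: Vegfc and Pgf were at 19.8 and 15.7 CPM in eBMSC-1 and had 0 UMIs in eBMSC-2, and Nrp1 was at 406.1 against 136.1 CPM. Listed mitotic BMSCs (231 cells) had 88 CPM of Vegfa and 336.8 of Nrp1. The 953 listed chondrocytes had 147.7 CPM of Vegfa (134.8 to 161.5) and 48.7 of Nrp1.

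Vegfb, a ligand of Flt1, had a flat distribution. It was highest in osteoclast-like cells, of which 129 WT cells were listed as neutrophil progenitor, at 97.8 CPM (81.5 to 116.3) in the WT and 107.8 in the mutant library. HSPC-like cells had 63.6 and 58.7 CPM and held 23% of the WT Vegfb UMIs. Stromal-like cells had 54.3 and 56.9 CPM, growth plate-like 43.1 and 39.6, non-arterial EC-like 39.6 and 31.7, osteolineage-like 25.3 and 19.9, and hypertrophic-like 19.5 and 20.4. No pair of neighbours in the WT order had an interval that left out 1, although classes further apart in it differed by more, with osteoclast-like to HSPC-like at 1.54 (1.23 to 1.92). Arterial EC-like cells had 2 UMIs in each library.

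Vegfc, the ligand of Flt4, was highest in arterial EC-like cells of both libraries. The level was 252.9 CPM (194.3 to 323.5) from 63 UMIs in the WT library and 253.6 (198.4 to 319.4) from 72 UMIs in the mutant. Osteolineage-like cells came next in the WT library at 30.7 CPM, 8.24 times lower (5.55 to 12.3), and osteoclast-like cells came next in the mutant at 32.8. Stromal-like cells had 19.6 and 17.6 CPM, non-arterial EC-like cells 16.9 and 14.5, and all chondrocyte-like cells together, without the Stc1-led class, 1.83 and 1.24. The arterial EC-like cells, 76 of the WT cells and 68 of the mutant, held 23.8% and 33.3% of the Vegfc UMIs, and the far more numerous stromal-like cells 24.9% and 18.1%. A Vegfc UMI was found in 51.3% and 50% of arterial EC-like cells, and in 25.4% of them in either library after thinning to 1000 UMIs. Vegfa also was higher in the arterial subcluster than in the other EC-like cells, at 60.6 against 10.6 CPM in the WT library, a ratio of 5.73 (2.73 to 11.9), and at a ratio of 3.25 (1.69 to 6.08) in the mutant.

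Pgf, a second ligand of Flt1, was sparse. In the WT library arterial EC-like cells had 16 UMIs (64.2 CPM, 36.7 to 104.3), mural-like cells 28.9 CPM, osteolineage-like 25.3 and stromal-like 14. The step from arterial to mural-like cells was 2.22 (1.05 to 4.68). In the mutant library the arterial cells had 7 UMIs (24.7 CPM), mural-like cells 43.3 CPM, osteolineage-like 28.3 and stromal-like 8.59, so the arterial level was lower there than in the WT library. This depended on which cells were called arterial: in the arterial EC subcluster, 81 WT and 73 mutant cells, Pgf had 17 UMIs in each library (64.4 and 57.2 CPM). Within the mural-like class, cells led by Nrip2 had 174.2 and 63.9 CPM.

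The receptors Flt1 and Kdr were read mostly in EC-like cells. Flt1, the tight but weakly signalling receptor, stood at 900.4 CPM (856.1 to 946.5) in non-arterial and 895.1 in arterial EC-like cells of the WT library, a ratio of 1.01 (0.874 to 1.16), and at 835 and 1053 CPM in the mutant. Kdr, the main signalling receptor, stood at 1327 (1273 to 1383) and 1019 CPM in the WT library, a ratio of 1.3 (1.14 to 1.49), and at 1514 (1453 to 1577) and 947.5 in the mutant. The EC-like classes held nearly all of it: 87.3% and 9.74% of the WT Kdr UMIs lay in non-arterial and arterial EC-like cells, and 87% and 10.2% of the mutant. For Flt1 the WT shares were 80.3% and 11.6%. A Kdr UMI was found in 91.9% and 94.9% of non-arterial EC-like cells of the 2 libraries, against 1.18% and 2.57% of HSPC-like cells.

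Single cells mostly carried both receptors. Of the EC-like cells 78.3% (WT) and 80.6% (Wls mutant) had UMIs of both Flt1 and Kdr, and 3.08% and 1.96% had none of Flt1, Kdr and Flt4. After thinning to 1000 UMIs the shares with both were 43.2% and 41.6%. In HSPC-like cells 96.5% and 96.1% had none of the 3 receptors.

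Flt4, the receptor of Vegfc, was a receptor of non-arterial endothelium. It was at 207.5 CPM (186.5 to 230.2) in non-arterial EC-like cells of the WT library and at 36.1 in arterial ones, a ratio of 5.74 (2.99 to 12.7), and at 180.3 and 59.9 CPM in the mutant. Of the WT Flt4 UMIs 93.7% lay in non-arterial EC-like cells. Ligand and receptor were thus highest in different EC classes, Vegfc in the arterial and Flt4 in the non-arterial.

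Receptor reads outside the EC-like classes were few, and EC markers were read beside some of them but not all. Mural-like cells had 129.2 and 93 CPM of Flt1 and 66.3 and 44.9 CPM of Kdr. This class was mixed and held a subcluster of 9 WT and 6 mutant cells with EC genes, in which 37 and 26 of the Kdr UMIs lay, and its Cdh5, the cadherin of endothelial junctions, was at 88.4 and 40.1 CPM against 1606 and 1505 in EC-like cells. Flt1 was read also in mural-like cells without EC genes. A subcluster led by the liver genes Afp, Apoa1 and Alb (33 and 15 cells), with 6786 and 5903 CPM of the pericyte gene Rgs5 and 0 UMIs of Cdh5 and Pecam1, had 306.9 and 504.1 CPM of Flt1, which is 3.68 (2.28 to 5.93) and 10.5 (6.07 to 18.3) times the level of the other mural-like cells, and 1 and 0 UMIs of Kdr. Where the liver transcripts came from was not tested. Stc1-led cells had 9 and 22 UMIs of Flt1 and Hbegf-led cells 13 and 9, with 0 UMIs of Cdh5 in both classes. In tendon-like cells Kdr was read in 0 of 69 WT cells. A floor of 3 counts stands for 4.35% of these cells, and the exact Clopper-Pearson upper limit for 0 of 69 cells is 5.21%. In the mutant library Kdr was read in 11 of 97 tendon-like cells with 15 UMIs. Those 11 cells had 0 UMIs of Cdh5, Pecam1 and Flt1 and 172 UMIs of Tnmd, a tendon gene.

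Nrp1, the co-receptor of Vegfa, was highest in arterial EC-like cells and reached far into stroma. It stood at 1533 CPM (1383 to 1695) in arterial and 902.7 in non-arterial EC-like cells of the WT library, a ratio of 1.7 (1.51 to 1.9), and at 1518 and 847.5 in the mutant. Mural-like cells had 526.9 and 341.4 CPM, stromal-like cells 372.6 and 388.2, and osteolineage-like cells 214.8 and 215. In the WT library each step from arterial down to an unnamed class led by Hbegf (232.1 CPM), of which 149 cells were listed as eBMSC-2, had an interval that left out 1. Growth plate-like cells had 20.7 and 12.6 CPM and HSPC-like cells 7.51 and 2.61. Because arterial cells were few they held 8.44% of the WT Nrp1 UMIs.

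Nrp2, the co-receptor of Vegfc, had a different order. Osteoclast-like cells were highest in both libraries, at 1003 CPM (949.3 to 1059) in the WT and 780.2 in the mutant. Osteolineage-like cells had 582.9 and 605.1 CPM, tendon-like cells 597.6 and 271.2, and non-arterial EC-like cells 366 and 341.5. Arterial EC-like cells had 16.1 and 28.2 CPM, from 4 UMIs in the WT library, so the pair of co-receptors lay at opposite ends of the EC classes.

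The listed EC labels of the WT library (56 arterial, 47 sinusoidal, 232 capillary-1, 47 capillary-2 and 53 capillary-3 cells) were used to compare receptors among vessels. In arterial cells Nrp1 was at 1575 CPM against 904.4 across the remaining listed ECs, a ratio of 1.74 (1.52 to 1.99). Nrp2 was at 16.5 against 390 CPM, from 3 UMIs in arterial cells, a ratio of 0.0422 (0.00868 to 0.124), and Flt4 at 38.4 against 223.4, a ratio of 0.172 (0.0685 to 0.359). Kdr and Flt1 did not separate the listed arterial cells, with ratios of 1.07 (0.932 to 1.22) and 1.05 (0.891 to 1.23). In the rebuilt classes Kdr was higher in non-arterial than in arterial EC-like cells, at 1.3 (1.14 to 1.49, WT) and 1.6 (1.41 to 1.82, mutant). Flt1 was level there in the WT library and higher in arterial cells of the mutant, at 1.26 (1.11 to 1.43). The Kdr result thus depended on which cells were called arterial. Of 7 members with at least 30 UMIs in this comparison, 2 were higher (Nrp1 and Vegfc) and 3 lower (Nrp2, Flt4 and Vegfb) by over 1.5-fold, where 42.4% of all genes passed that fold.

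Sinusoidal cells, the wide thin-walled marrow vessels, were high in receptors. Flt4 was at 769.9 CPM against 141.3 across the remaining listed ECs, a ratio of 5.45 (4.22 to 7). Kdr was at 2069 against 1265, a ratio of 1.64 (1.43 to 1.86), and Nrp2 at 684.4 against 306.3, a ratio of 2.23 (1.75 to 2.82). Flt1 differed less, at 1112 against 913.5 with a ratio of 1.22 (1.02 to 1.45), and Nrp1 was lower, at 785.4 against 1013 with a ratio of 0.775 (0.627 to 0.95). Of 7 members with at least 30 UMIs, 3 were higher by over 1.5-fold and 1 was lower (Vegfc, at a ratio of 0.492), where 41.2% of all genes passed that fold. In both comparisons the share of members past the fold is read against shares of all genes above 40%, so a difference of this size was common between vessel types.

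The capillary labels also differed among themselves. Capillary-2 cells were low in Flt1, at 552.7 CPM and 0.568 times the other listed ECs (0.444 to 0.716), and low in Flt4, at 36.4 CPM and a ratio of 0.168. In the same cells Nrp1 was at 1433 CPM, a ratio of 1.52 (1.3 to 1.77), and Nrp2 at 487.2, a ratio of 1.5 (1.14 to 1.94). They were the only listed EC group in which both co-receptors were above the other listed ECs. Capillary-1 cells lay near the middle, with 939.3 CPM of Flt1, 1284 of Kdr, 152.9 of Flt4, 867.6 of Nrp1 and 361.4 of Nrp2. Capillary-3 cells had 259.6 CPM of Flt4 and were lower in both co-receptors, with Nrp1 at 759.5 and Nrp2 at 245.2.

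The EC subclusters rebuilt here carried the following of these patterns into the mutant library. Arterial cells (81 WT and 73 mutant cells, with 1390 and 1343 CPM of the arterial connexin Gja5) had Nrp1 at 1.79 and 1.77 times the other EC-like cells, and Nrp2 at 0.0617 and 0.0486 times. Sinusoidal EC-like cells (40 and 20 cells) had Flt4 at 5.64 and 3.09 times, Kdr at 1.76 and 1.47 times and Nrp2 at 2.02 and 2.3 times. Stab2, the scavenger receptor that marks sinusoids, stood at 524.2 and 279.4 CPM in these cells. A group led by Kcne3 (119 and 78 cells) also was high in Flt4, at 361.7 and 329.4 CPM, and low in Nrp1, at 659.1 and 747.5. A group led by Fndc1 (34 and 20 cells) had 1961 and 1600 CPM of Nrp1 with 21 and 25.2 of Flt4.

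A few EC-like cells had Flt4 and Kdr but no Flt1. A lymphatic EC-like subcluster of 5 WT and 8 mutant cells, with 129 and 146 UMIs of Lyve1, 79 and 73 of Ccl21a and 9 and 30 of Prox1, had 17 and 32 UMIs of Flt4 (831.1 and 1148 CPM), 4.64 (2.67 to 7.54) and 7.88 (5.28 to 11.4) times the level of the other EC-like cells. These cells had 23 and 47 UMIs of Kdr and 16 and 26 of Nrp2. Flt1, Nrp1 and Vegfc had 0 UMIs in both libraries. The subcluster is small, and its levels rest on these few cells.

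**Figure D3:**
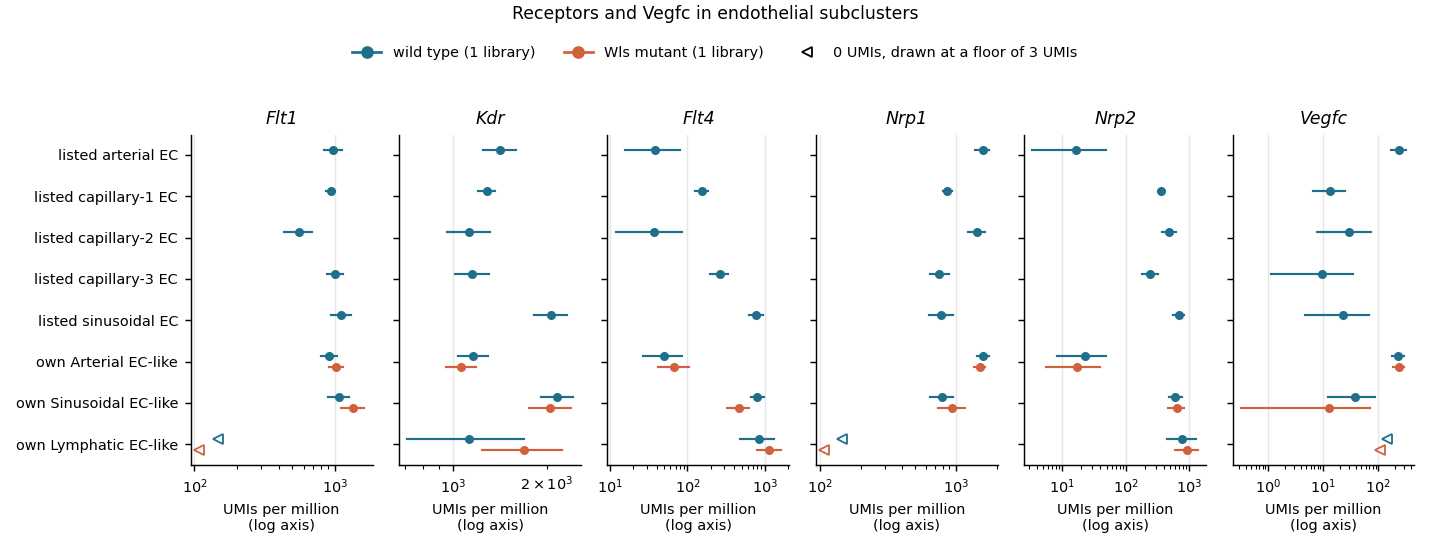
Levels of Flt1, Kdr, Flt4, Nrp1, Nrp2 and Vegfc in listed EC labels of the WT library and in rebuilt arterial, sinusoidal and lymphatic EC-like subclusters of both libraries, in CPM with exact Poisson 95% intervals. Flt4 and Nrp2 are high in sinusoidal cells (769.9 and 684.4 CPM in the listed cells) and low in arterial cells (38.4 and 16.5), and Vegfc shows the reverse order.

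The libraries were compared member by member in each class. Of 70 pairs of a member and a class with at least 30 UMIs over both libraries, 4 were over 1.5-fold higher and 10 over 1.5-fold lower in the Wls mutant library, 20% in all. Over all genes the share past the fold was 15% when the classes were weighted by their member pairs. In arterial EC-like cells, which carry the driver, 5 members had enough UMIs and 0 passed the fold, where 17.8% of all genes did. There Vegfc had a mutant-to-WT ratio of 1 (0.705 to 1.43), Nrp1 of 0.99 (0.861 to 1.14), Kdr of 0.929 (0.78 to 1.11) and Flt1 of 1.18 (0.986 to 1.41). Pgf, below the minimum with 16 and 7 UMIs, stood at 64.2 and 24.7 CPM, a ratio of 0.384 (0.134 to 0.986), but in the arterial EC subcluster the ratio was 0.889 (0.427 to 1.85).

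In the other EC-like cells 1 of 8 members passed the fold, where 10.6% of all genes did. This was Vegfa, with 18 UMIs in the WT and 28 in the mutant library, a ratio of 1.76 whose interval (0.942 to 3.38) included 1. A subcluster of EC-like cells that also carried the cartilage genes Col2a1, Matn1 and Col9a1 (23 WT and 22 mutant cells) bore on it: without these cells Vegfa had 14 and 16 UMIs (8.78 and 11.4 CPM), a ratio of 1.3 (0.593 to 2.87), under the fold. Kdr was at 1327 and 1514 CPM, a ratio of 1.14 (1.08 to 1.21), Flt1 had a ratio of 0.927 (0.86 to 1), Flt4 of 0.869 (0.74 to 1.02) and Nrp1 of 0.939. The Kdr interval left out 1 at a size far under the fold, and without a second library it cannot be set against the spread between libraries.

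In the classes that supply Vegfa the ratios lay on both sides of 1. Growth plate-like cells had 175.6 and 180 CPM, a ratio of 1.03 (0.895 to 1.18), and osteolineage-like cells 203.4 and 191.9, a ratio of 0.943 (0.781 to 1.14). Without the Col10a1-led subcluster the osteolineage-like levels were 174.2 and 120.8 CPM, a ratio of 0.694 (0.545 to 0.878), so the value near 1 rested on those few cells. Stromal-like cells had 114 and 150.9 CPM, a ratio of 1.32 (1.14 to 1.54). The stromal-like class was made up differently in the libraries, with 598 WT and 235 mutant cells in the stromal cluster found at resolution 1.0 and 367 and 374 in a Thbs4-led cluster, in which the ratios were 1.22 (0.985 to 1.51) and 1.31 (1.04 to 1.67). Superficial-like chondrocytes had 133.3 and 169.2 CPM, a ratio of 1.27 (1.05 to 1.54). Hypertrophic-like cells went the other way, at 101.7 and 72.1 CPM with a ratio of 0.708 (0.593 to 0.845). Of the hypertrophic-like cells 31 in the WT and 144 in the mutant library formed a subcluster led by Col1a1, the main collagen of bone, with 84.6 and 81.2 CPM of Vegfa, and without it the ratio was 0.665 (0.543 to 0.812). None of these class ratios passed 1.5-fold as the classes stood. In growth plate-like cells 1 of 4 members was lower by over 1.5-fold (13.3% of all genes passed in either direction), in hypertrophic-like cells 0 of 4 (12.6%), in Wif1-led cells 0 of 4 (12.0%), in osteolineage-like cells 0 of 6 (13.4%) and in stromal-like cells 2 of 7 (13.8%).

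The co-receptors supplied most of the larger differences outside endothelium. Nrp1 was lower in the mutant library in mural-like cells (526.9 and 341.4 CPM, a ratio of 0.648, 0.542 to 0.774). The same held, with fewer UMIs, in growth plate-like cells (20.7 and 12.6 CPM, 0.608, 0.377 to 0.972), in osteoclast-like cells (51.6 and 26.9 CPM, 0.522, 0.31 to 0.85), in superficial-like cells (25.4 and 12.7 CPM, 0.498, 0.291 to 0.857) and in HSPC-like cells (7.51 and 2.61 CPM, 0.347, 0.118 to 0.855). In the Stc1-led class Nrp1 was higher, from 53 and 258 UMIs (107.4 and 200 CPM), a ratio of 1.86 (1.38 to 2.55), and Nrp2 was higher as well, at 62.8 and 100.8 CPM (1.6, 1.08 to 2.46). This class was mixed too: when the members were kept in the clustering, 39 WT and 183 mutant of its cells fell into a Bpifb1-led cluster with 177.8 and 264.7 CPM of Nrp1, a ratio of 1.49 (0.964 to 2.4), and the remaining 144 and 189 had 82.9 and 112.8 CPM, a ratio of 1.36 (0.867 to 2.18). Nrp2 was lower in tendon-like cells at 597.6 and 271.2 CPM (0.454, 0.342 to 0.6), in superficial-like cells at 37.7 and 17.6 (0.466, 0.298 to 0.729) and in Hbegf-led cells at 104.1 and 62.9 (0.604, 0.426 to 0.852). The mural-like class, where the Nrp1 ratio rested on most UMIs, was mixed, and a subcluster of 15 WT and 10 mutant cells with stromal genes had 2621 and 1483 CPM of Nrp1. The EC genes of the class were lower in the mutant as well, Cdh5 at 88.4 and 40.1 CPM and Pecam1 at 120.7 and 64.1, as was Rgs5 at 5010 and 3573. Without the subclusters with stromal and EC genes Nrp1 stood at 293.3 and 209.7 CPM, a ratio of 0.715 (0.553 to 0.922), under the fold.

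The remaining pairs past the fold were Flt1 in stromal-like cells (32 and 6 UMIs, 0.285, 0.0976 to 0.692), with Cdh5 at 7 and 3 UMIs in the same cells, Pgf in stromal-like cells (0.615, 0.341 to 1.07) and Vegfc in osteoclast-like cells (24 and 28 UMIs, 1.78, 0.992 to 3.2). The fold was passed by 1 of 7 members in mural-like cells (17.4% of all genes), 1 of 3 in HSPC-like (10.5%), 1 of 4 in Hbegf-led (13.9%), 2 of 4 in superficial-like (16.1%), 2 of 5 in osteoclast-like (14.1%), 2 of 5 in Stc1-led (19.3%) and 1 of 4 in tendon-like cells (26.8%).

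**Figure D4:**
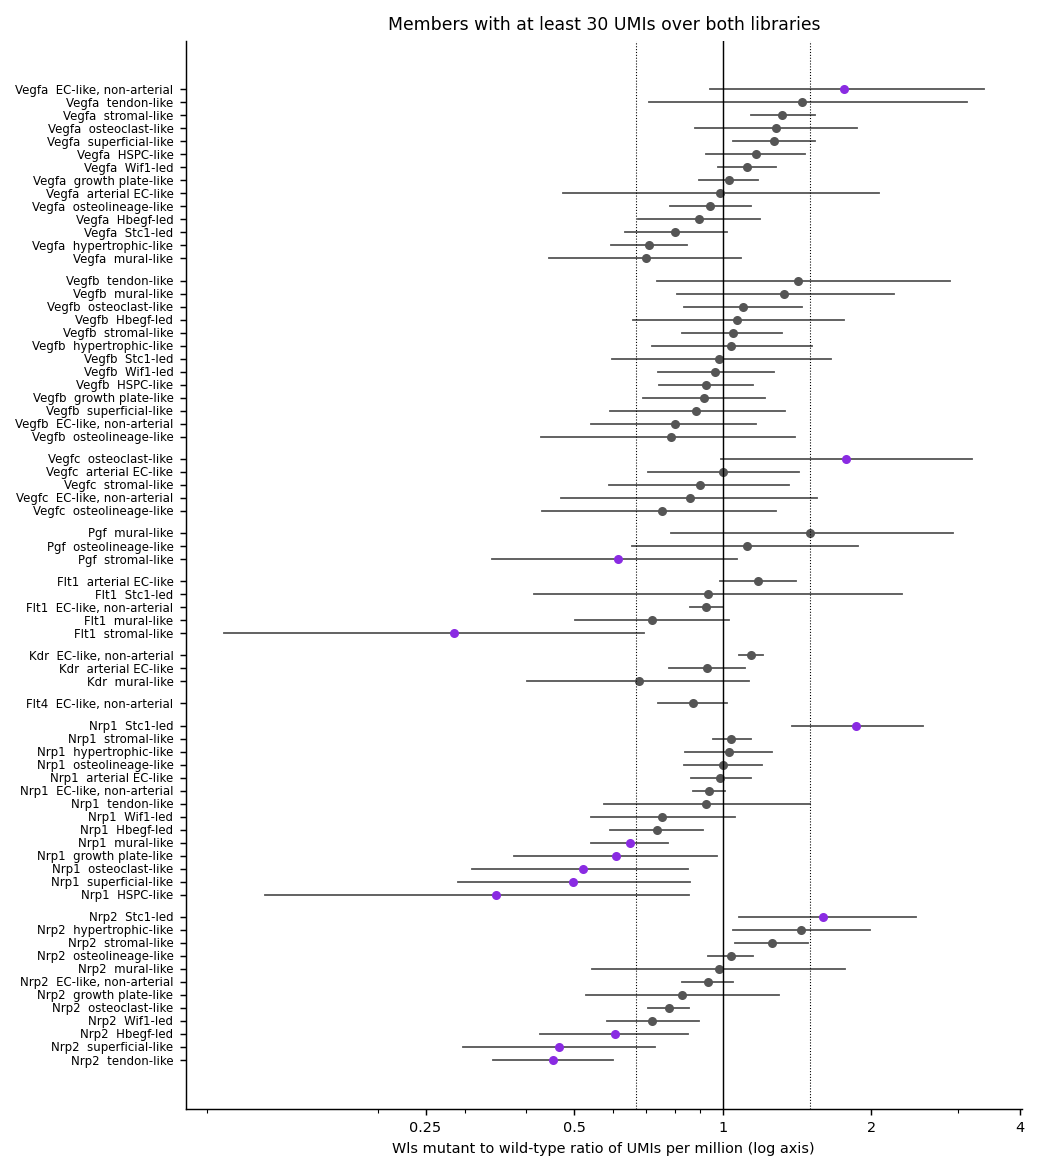
Ratio of the Wls mutant to the WT level for each VEGF gene and class with at least 30 UMIs over both libraries, on a log axis with exact binomial 95% intervals. Dotted lines mark 1.5-fold and purple points lie past it. Of the 70 pairs 4 lie above and 10 below the lines, and 0 of the 5 arterial EC-like pairs do.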

How the data were processed

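The authors deposited 1 table of UMI counts per gene and cell barcode for each of the 2 libraries (no normalization). The submitters' processing notes name bcl2fastq 2.19.1.403, UMI-tools 1.0.1, STAR 2.7.1a and featureCounts 1.6.4 of Subread, with mm10. Cells with over 200 and under 5000 genes and under 30% mitochondrial UMIs were kept. Both libraries were log-normalized and clustered together (Scanpy 1.11.5, igraph 0.11.9, Python 3.11.15) on 2001 variable genes without the 9 members, 11 principal components, 20 neighbours and resolution 0.5, giving 15 clusters. Clusters were named from marker lists and subclustered; names are rebuilt and may differ from the study's. Scrublet marked 38 WT (0.662%) and 0 mutant cells, which were kept, so doublets were in effect not removed. Levels, ratios and intervals came from SciPy 1.17.1, and edgeR 4.0.16 (R 4.3.3) gave TMM factors as an alternative scaling only. No replicates existed, so the libraries were not tested against each other. Code was tested on simulated counts with Poisson noise only and no spread between libraries. There 200 genes per class were planted at a true ratio of 2 or 0.5. They were read as past the fold in 97% of cases for EC-like, 95.5% for growth plate-like and 95% for osteolineage-like cells. This checks the code and does not show how often changes nearer 1.5-fold, or unchanged genes, pass the fold in single libraries. All 9 members were named throughout, as were the 2 genes with the most WT UMIs of each pathway list and, for each member, the 3 genes with the highest correlation over 14 classes. A gene entered a fold count with at least 30 UMIs over both sides, and called means over 1.5-fold either way. The members, gene lists and classes were chosen with earlier results of these data known.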

Additional observations from a re-analysis of the deposited data

How the results depend on the processing

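No paired analysis was possible because each genotype had 1 library. Over 58 results and 391 alternative values, 344 stayed within the counting interval, 46 moved beyond it and 1 reversed. Leaving out or splitting subclusters was chosen after seeing the data. Without the Col10a1-led subcluster the osteolineage-like to stromal-like Vegfa ratio was 1.53 (WT) and 0.801 (mutant, reversed from 1.27), and the mutant-to-WT Vegfa ratio of osteolineage-like cells was 0.694 (0.943 with it), since 5 of those cells held 69 of the 183 mutant UMIs. In the Col1a1-led hypertrophic-like subcluster alone the mutant-to-WT Vegfa ratio was 0.959 (0.708 in the class). The hypertrophic-like to other chondrocyte-like Vegfa ratio (0.638 WT, 0.412 mutant) was 0.529 and 0.341 with the members kept in clustering, 0.454 and 0.349 at resolution 1.0, 0.499 (WT) with 30 components, 0.807 (WT) as shares of cells thinned to 1000 UMIs, and 0.497 (mutant) as a mean per cell. At resolution 1.0 the Wif1-led clusters, and with 30 components a cycling cluster, were not named as chondrocyte. They left the comparison, so these values are against a different set of cells. The osteolineage-like to stromal-like Nrp2 ratio (6.55 WT, 5.4 mutant) was 5.01 and 4.26 as a mean per cell, 7.95 (WT) at resolution 1.0 and 5.04 with listed labels. As thinned shares, the sinusoidal ratios were 4.09 for Flt4 and 1.33 for Kdr, and the arterial Nrp1 ratio was 1.31. The Col10a1-led Vegfa ratio of the mutant, 6.54, was 2.92 as a thinned share, an alternative chosen after seeing the data. A minimum of 10 UMIs raised the share of genes past 1.5-fold from 10.1% to 17% in all EC-like and from 13.4% to 21.5% in osteolineage-like cells. The Nrp2 ratio of osteoclast-like to HSPC-like cells rests on few HSPC-like UMIs, 12 in the WT and 5 in the mutant library. The levels were 1003 against 3.22 CPM (WT) and 780.2 against 2.17 (mutant). A far larger ratio of 1211 was read without the top 5% of cells by doublet score. The osteoclast-like class could not be formed under that name with 30 components. The cause of these moves was not tested. Median-of-ratios size factors (mutant to WT) differed from the UMI totals by -0.0637 to 0.0734 in log2, in the classes so scaled. The log2 ratios moved by the same sizes with the opposite sign. With these factors 12 values stayed within the counting interval, and with TMM factors also 12. Depth limits most ratios of Pgf and, outside EC-like cells, of Flt1 and Flt4, which had too few UMIs to be compared.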

Other observations

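Other genes of the VEGF system, from lists chosen with earlier results of these data known, were read in the same classes. Figf, the second ligand of Flt4, had 80 WT UMIs and stood at 18.4 (WT) and 16.7 CPM (Wls mutant) in stromal-like cells. Adamts3, the protease that activates Vegfc, was at 151.8 and 168.3 CPM in hypertrophic-like cells, a class with nearly no Vegfc. Ccbe1, its cofactor, was at 30 and 9.44 CPM in osteolineage-like cells. Of the semaphorins that bind the neuropilins, Sema3c was at 625.5 and 253 CPM in stromal-like cells and Sema3d at 58.2 and 17.2 CPM in the same cells and at 129.5 and 121.5 in hypertrophic-like cells. Plxnd1, a semaphorin receptor of vessels, was at 458 and 530.1 CPM in EC-like cells, and Plxna1 at 139.4 and 169.9 CPM in mural-like cells. Tie1, an endothelial receptor kinase, was at 824.9 and 1147 CPM and Aplnr, the apelin receptor, at 807.6 and 694.2 in EC-like cells, where its ligand Apln stood at 455 and 446.7. Of the hypoxia genes Egln1, an oxygen sensor, was at 141.8 and 141 CPM in chondrocyte-like cells, and Hif1a, the oxygen-regulated factor, at 124.6 and 134.2.

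By list, counts past 1.5-fold between the libraries are set beside the share of all genes past it. In non-arterial EC-like cells (10.6%) they were 0 of 5 measured VEGF-responsive genes, 0 of 7 endothelial partners, 0 of 7 hypoxia genes, 0 of 3 plexins and 1 of 3 semaphorins, which was higher. In arterial EC-like cells (17.8%) they were 1 of 2 VEGF-responsive genes, lower, 1 of 2 plexins, higher, 1 of 5 endothelial partners, higher, and 1 of 4 hypoxia genes, lower. In stromal-like cells (13.8%) 2 of 6 semaphorins and 1 of 3 endothelial partners were lower. There 1 of 6 hypoxia genes and 1 of 2 VEGF-C processing genes were higher. Growth plate-like cells (13.3%) had 2 of 7 hypoxia genes higher and hypertrophic-like cells (12.6%) 0 of 7, with 1 of 3 semaphorins higher. Stc1-led cells (19.3%) had 3 of 7 semaphorins lower and 1 higher, 2 of 4 plexins higher and 1 of 7 hypoxia genes higher. Tendon-like cells (26.8%) had 2 of 3 semaphorins lower. Osteolineage-like cells (13.4%) had 1 of 2 VEGF-C processing genes and the 1 measured VEGF-responsive gene lower, and 1 of 7 hypoxia genes higher. Not every class is given here.

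The genes whose levels ran most like each member over the 14 classes of the WT library, by Pearson correlation of log2(CPM + 10), are given with the same value in the mutant library as a description. Kdr ran with Arhgef15 (0.994 and 0.958), Sox18 (0.994 and 0.968) and Tmem88 (0.993 and 0.949), Flt1 with Kdr (0.981 and 0.932), Entpd1 (0.98 and 0.976) and Magi1 (0.977 and 0.878), and Flt4 with Pcdh12 (0.996 and 0.914), Unc45b (0.995 and 0.976) and Clec1a (0.991 and 0.998). Nrp1 ran with Pls3 (0.928 and 0.892), Dbn1 (0.924 and 0.926) and Ece1 (0.923 and 0.85), and Nrp2 with Rai14 (0.855 and 0.845), Ykt6 (0.82 and 0.657) and Slc39a1 (0.791 and 0.668). Among ligands, Vegfa ran with Sec16b (0.858 and 0.841), Cep170b (0.854 and 0.78) and Fam20c (0.851 and 0.739), and Vegfc with Arrdc4 (0.904 and 0.826), Klhl8 (0.89 and 0.666) and Fkbpl (0.886 and 0.808). Pgf ran with Gdf11 (0.969 and 0.816), Zfp606 (0.896 and 0.377) and Alg11 (0.868 and 0.0226), and Vegfb with Nsmaf (0.896 and 0.118), Fam173a (0.881 and 0.565) and Tmem164 (0.879 and 0.617), so the genes nearest to Vegfb and Pgf were in part not those of the mutant library. The classes share libraries and differ in depth, and under other pseudocounts or filters 0 to 3 of each 3 genes were shared.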
